A study of Mus musculus with 6 samples.

Results

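Basement membranes are thin sheets of extracellular matrix that surround each muscle fibre, capillary and nerve. Laminins, assembled from 1 alpha, 1 beta and 1 gamma chain, form a network bound to receptors on the cell surface, nidogens link that network to collagen IV, and the heparan sulfate proteoglycans perlecan and agrin bind laminin and alpha-dystroglycan and hold growth factors. In skeletal muscle much of this matrix is secreted by interstitial cells, and defects of the laminin alpha chain encoded by Lama2 cause a congenital muscular dystrophy. The 10 genes described here encode the laminin chains Lama2, Lama4, Lama5, Lamb1, Lamb2 and Lamc1, the nidogens Nid1 and Nid2, perlecan (Hspg2) and agrin (Agrn), and were taken by symbol from the 16894 genes listed. All 10 were listed and passed the filter on low values.

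The samples were fibroadipogenic progenitors (FAPs), the mesenchymal progenitors of the muscle interstitium, from which fibroblasts and fat cells can arise. They came from quadriceps, gastrocnemius and tibialis anterior muscles of young male and female C57BL/6 mice, were sorted by magnetic beads as CD45-, CD31-, alpha-7 integrin-negative and SCA-1+ cells, and were grown in culture with serum and basic fibroblast growth factor at low oxygen. Control FAPs, labelled non-senescent, were compared with senescent FAPs, which had received 20 μM etoposide, an inhibitor of DNA topoisomerase, for 48 h and then normal medium for 5 days. Each group held 3 libraries of bulk mRNA, numbered 1 to 3, and whether they came from separate mice or cultures is not stated, so p-values measure the spread between these libraries, which may be technical. The cells are a culture model without fibres, vessels or nerves, and in bulk RNA fewer cells that express a gene cannot be told apart from less of its RNA per cell.

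Genes received 41412179 to 59912520 reads per library. Levels are given in CPM, reads relative to library size as deposited, which include a scaling between libraries, and where 3 values of a group follow each other they are those of replicates 1, 2 and 3 in that order. The FAP markers Pdgfra and Ly6a averaged 192 and 372 CPM in control FAPs and 218 and 625 CPM in senescent FAPs, and all 10 FAP markers examined were listed, but Lum averaged 0.535 and 3.39 CPM and Dpp4 1.38 and 1.67 CPM. The sum of the FAP markers, mostly Col1a1, was 16906 to 35445 CPM in control and 10615 to 14923 CPM in senescent libraries, lower without overlap. Col1a1 fell from 15545 to 3116 CPM (log2 fold change -2.29, limma adjusted p = 0.00150). Of the 10 markers 5, Ly6a and Lum among them, were called higher (50%, where 21.8% of all genes tested were higher). Col1a1 was the only 1 called lower (10%, where 24.3% of all genes tested were lower). Replicates of a group differed by far more than sampling noise, with a chi-square statistic of 14.9 to 149 per gene where sampling alone gives about 1, and control replicate 2 stood furthest from its group, at 149 and 104 from the other control libraries, which were 41.6 from each other.

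Perlecan fell and agrin rose in senescent compared to control FAPs, and the laminin gamma chain Lamc1, the nidogen Nid2 and the laminin alpha chain Lama2 fell by smaller amounts. The other laminin chains of the group and Nid1 did not pass the test. Of the 10 genes, 1 was higher and 4 were lower at a limma adjusted p under 0.05, where 21.8% of the 14776 genes tested were higher and 24.3% lower. The same 5 genes had groups that did not overlap, 1 higher and 4 lower, and of all genes tested 26.5% were higher and 30.9% lower without overlap. The median log2 fold change of the 10 genes was -0.20, with 8 below 0 and 2 above, and that of all genes tested was -0.03. Under the other call rule, which asks for a log2 fold change past 1 in size with p under 0.01 before adjustment, limma called 0 of the 10 genes in either direction, as edgeR and DESeq2 did on the recovered reads, while 6.93% of all genes passed upward and 3.9% downward. At an unadjusted p under 0.05, 5 of the 10 genes passed in limma.

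The deposited scaling bears on the smaller changes. With division by library totals alone the median of all genes moved from -0.03 to 0.17 on the log2 scale. The calls among the 10 genes went from 1 higher and 4 lower to 1 higher and 1 lower, with Agrn and Hspg2 called. Under the other call rule Agrn alone of the 10 then passed, upward. Over all genes the calls went from 3218 higher and 3592 lower to 5056 higher and 1933 lower. Relative to the median of all genes, the log2 change of Hspg2 was -0.81 as deposited and -0.80 with library totals, that of Agrn 0.87 and 0.88, that of Lamc1 -0.41 and -0.40, that of Nid2 -0.54 and -0.52 and that of Lama2 -0.32 and -0.31.

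**Figure D1:**
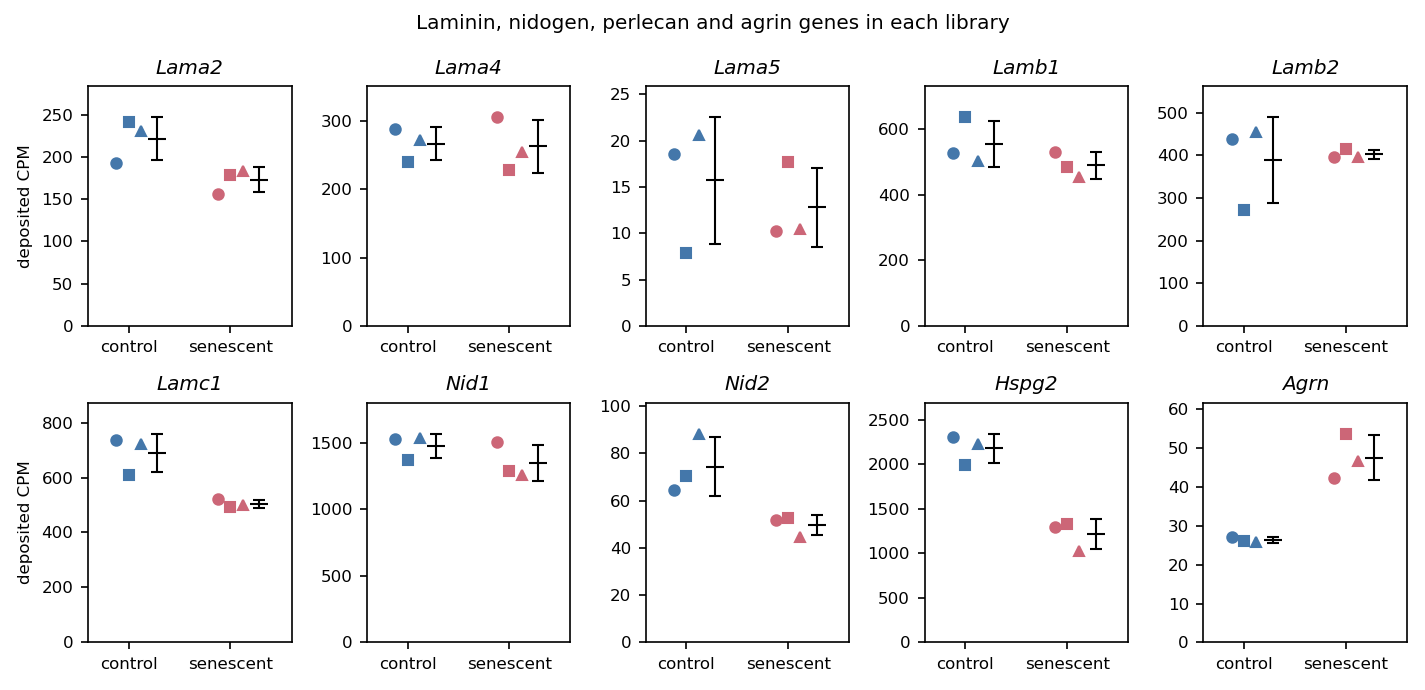
Deposited CPM (vertical axis, linear, starting at 0, with a scale for each gene) of the 10 genes in the 3 control and 3 senescent FAP libraries. Circles, squares and triangles are replicates 1, 2 and 3, and the bars give the mean and SD of each group. Agrn is higher in every senescent library, Hspg2, Lamc1, Nid2 and Lama2 are lower in every senescent library, and the groups overlap in the other 5 genes.

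Hspg2 encodes perlecan, a very large proteoglycan whose core protein binds laminin, nidogen and many growth factors. The gene lies on chromosome 4 of mm10, from 137468769 to 137570630 on the plus strand (ENSMUSG00000028763.17). It measured 2309, 1994 and 2229 CPM in control FAPs and 1295, 1331 and 1027 CPM in senescent FAPs. Every senescent library lay well below every control library. The mean fell from 2178 ± 164 to 1218 ± 166 CPM (SD, n = 3 per group), a log2 fold change of -0.85 (SE 0.14, 95% interval -1.17 to -0.52, limma adjusted p = 0.00253), or 1.80-fold lower. These values rest on 45632 to 124202 reads per library, so counting error is small beside the spread of the replicates. Between libraries of equal number the log2 differences were -0.83, -0.58 and -1.12. The call held in all 16 alternatives, with log2 fold changes of -0.91 to -0.63 and adjusted p of 2.26e-08 to 0.0128.

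Agrn encodes agrin, best known in its nerve-derived form as the signal that clusters acetylcholine receptors at the neuromuscular junction, and made by other cells in forms that anchor laminin to dystroglycan. Gene-level counts do not separate these forms. The gene lies on chromosome 4 of mm10, from 156165290 to 156197488 on the minus strand (ENSMUSG00000041936.18). It measured 27.2, 26.0 and 25.8 CPM in control FAPs and 42.3, 53.7 and 46.8 CPM in senescent FAPs. The control libraries lay within a narrow band, and the lowest senescent library lay above all of them. The mean rose from 26.3 ± 0.761 to 47.6 ± 5.76 CPM (SD, n = 3 per group), a log2 fold change of 0.84 (SE 0.10, 95% interval 0.60 to 1.07, limma adjusted p = 0.000762), or 1.78-fold higher, on 1219 to 3211 reads per library. The log2 differences between libraries of equal number were 0.63, 1.03 and 0.85, and the call held in all 16 alternatives, with log2 fold changes of 0.75 to 1.05 and adjusted p up to 0.00587.

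Both proteoglycan genes lie on chromosome 4 and moved in opposite directions, so the bases before their RefSeq starts are shown for comparison, 200 bases each on the gene's own strand, from 250 to 51 bases before the start. They are RefSeq sequence on GRCm38.p6, chr4:137468553-137468752 (plus strand) for Hspg2 and chr4:156197539-156197738 (minus strand) for the upstream of the 2 Agrn starts. Capitals mark the GC box, searched as GGGCGG on both strands with overlapping matches allowed, so that a match on the opposite strand reads CCGCCC.
Hspg2: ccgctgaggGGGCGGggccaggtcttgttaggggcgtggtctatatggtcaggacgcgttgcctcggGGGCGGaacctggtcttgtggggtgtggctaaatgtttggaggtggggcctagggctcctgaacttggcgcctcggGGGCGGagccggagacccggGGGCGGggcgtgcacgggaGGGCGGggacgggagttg
Agrn: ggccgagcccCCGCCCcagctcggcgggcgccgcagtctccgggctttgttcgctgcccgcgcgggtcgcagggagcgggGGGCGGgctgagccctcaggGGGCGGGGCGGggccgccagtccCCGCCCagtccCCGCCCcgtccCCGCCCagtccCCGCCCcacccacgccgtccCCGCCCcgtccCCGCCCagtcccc
The Hspg2 window held 5 matches, all on the gene's strand, with 17 CpG and 70% G or C. The Agrn window held 10, of which 3 were on the gene's strand and 7 on the other, with 27 CpG and 84% G or C. Of 32851 promoter windows of the same length in the table, 24.6% held the motif, and the median window had 51.5% G or C and 4 CpG. The second Agrn start held none. Among the other members with a window, Lama5 held 3 matches, Lamb1 2, Nid1 1, and Lama2 and Lamb2 none. A link between the motif and the calls was not tested. The TATA box, searched as TATAAA, was in none of the 8 windows of the 7 members matched and in 9.14% of all windows. The windows end 51 bases before the start, so a TATA box nearer to the start could not be found. Lama4, Lamc1 and Nid2 had no entry.

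Within a library, perlecan and agrin RNA can be compared without any scaling between libraries. The log2 ratio of Hspg2 to Agrn CPM was 6.41, 6.26 and 6.43 in control FAPs and 4.94, 4.63 and 4.46 in senescent FAPs. The groups did not overlap, and the ratio went from 82.5 to 25.5 as a geometric mean, a log2 difference of -1.69. The two-sided exact permutation test gave p = 0.1, the smallest that 3 libraries against 3 allow, and 0.25 after adjustment over the 5 pairs of genes compared. Hspg2 took 37.0% ± 0.659 of the reads of the 10 genes in control FAPs and 27.0% ± 2.35 in senescent FAPs (SD, n = 3), and Agrn 0.448% ± 0.0262 and 1.06% ± 0.161.

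Among the laminin alpha chains, Lama2 passed the test while Lama4 and Lama5 did not. Lama2 encodes the alpha chain of the main laminin around muscle fibres, which binds alpha-dystroglycan and integrins (chromosome 10, 26980036 to 27619758, minus strand). It measured 193, 241 and 230 CPM in control FAPs and 156, 179 and 184 CPM in senescent FAPs. The groups did not overlap, although the highest senescent library lay close to the lowest control library. The mean fell from 221 ± 25.5 to 173 ± 14.7 CPM (SD, n = 3 per group), a log2 fold change of -0.35 (SE 0.11, 95% interval -0.60 to -0.10, limma adjusted p = 0.0303). The sign was the same in all 16 alternatives, but the call was lost in 7 of them. Library totals alone gave -0.14 (limma adjusted p = 0.341), and the test without the variance trend gave a limma adjusted p of 0.0540. The call was also lost when control replicate 2 or 3, or any 1 senescent replicate, was left out, with limma adjusted p of 0.0520 to 0.0947.

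Lama4, the alpha chain of laminins around vessels and nerves and in other interstitial matrix (chromosome 10, 38965515 to 39110188, plus strand), measured 288, 240 and 273 CPM in control FAPs and 306, 228 and 256 CPM in senescent FAPs. In each pair of equal number the values lay close, with replicate 1 highest and replicate 2 lowest in both groups. The log2 fold change was -0.03 with a 95% interval of -0.31 to 0.26 (limma adjusted p = 0.870). Lama5, the alpha chain of laminins in mature epithelial and vascular basement membranes (chromosome 2, 180176373 to 180225859, minus strand), was far lower, at 18.5, 7.91 and 20.6 CPM in control FAPs and 10.2, 17.7 and 10.5 CPM in senescent FAPs. Replicate 2 was the low library of the control group and the high library of the senescent group. The difference was not called (log2 fold change -0.22, 95% interval -1.07 to 0.63, limma adjusted p = 0.650), and its interval was the widest of the 10 genes. It depended on single libraries: without control replicate 2 it was -0.64 and passed at a limma adjusted p of 0.0478, and without control replicate 3 it was 0.03.

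Neither laminin beta chain passed the test. Lamb1 encodes the beta chain of most embryonic and interstitial laminins (chromosome 12, 31265234 to 31329644, plus strand) and measured 525, 635 and 501 CPM in control FAPs and 531, 482 and 452 CPM in senescent FAPs. Lamb2 encodes the beta chain found at the neuromuscular junction and in kidney (chromosome 9, 108479736 to 108490530, plus strand) and measured 439, 273 and 455 CPM in control FAPs and 396, 415 and 397 CPM in senescent FAPs. In control replicate 2 Lamb1 was at its highest and Lamb2 at its lowest, and the groups overlapped for both. The log2 fold change was -0.18 for Lamb1 (95% interval -0.44 to 0.09, limma adjusted p = 0.239) and 0.09 for Lamb2 (95% interval -0.34 to 0.52, limma adjusted p = 0.721). Without control replicate 2 the value for Lamb2 was -0.15.

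Lamc1 encodes the gamma chain shared by most laminin trimers (chromosome 1, 153218922 to 153332786, minus strand). It measured 736, 608 and 723 CPM in control FAPs and 520, 493 and 498 CPM in senescent FAPs. The senescent libraries lay within a narrow band below all control libraries. The mean fell from 689 ± 70.3 to 504 ± 14.5 CPM (SD, n = 3 per group), a decrease of 26.9% in the mean and a log2 fold change of -0.45 (SE 0.10, 95% interval -0.67 to -0.22, limma adjusted p = 0.00851). With library totals alone the log2 fold change was -0.23 and the limma adjusted p 0.0760.

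The nidogens bind the laminin gamma chain at one end and collagen IV and perlecan at the other. Nid2 (chromosome 14, 19751265 to 19811787, plus strand) measured 64.3, 70.2 and 88.2 CPM in control FAPs and 51.7, 52.4 and 44.6 CPM in senescent FAPs. All senescent libraries lay below all control libraries. The mean fell from 74.2 ± 12.4 to 49.6 ± 4.34 CPM (SD, n = 3 per group), a decrease of 33.2% in the mean and a log2 fold change of -0.57 (SE 0.13, 95% interval -0.86 to -0.27, limma adjusted p = 0.00921). With library totals alone it was -0.36 at a limma adjusted p of 0.0556. Exons of Nid2 share 8.45% of their bases with exons of Rtraf, and reads from that stretch cannot be assigned to either gene, since the sources used here do not say whether counting used strand. Smaller overlaps were found for Lama2, at 3.86% with exons of Gm48084, and for Nid1, at 2.06% with exons of Gm48682.

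Nid1, the more abundant nidogen (chromosome 13, 13437551 to 13512269, plus strand), measured 1524, 1371 and 1531 CPM in control FAPs and 1503, 1285 and 1254 CPM in senescent FAPs. The groups overlapped, and the log2 fold change of -0.13 was not called (95% interval -0.41 to 0.14, limma adjusted p = 0.378). The log2 ratio of Nid1 to Nid2 CPM within a library was 4.57, 4.29 and 4.12 in control FAPs and 4.86, 4.62 and 4.81 in senescent FAPs. These did not overlap, and the difference of 0.44 gave p = 0.1 in the two-sided exact permutation test and 0.25 after adjustment over the 5 pairs. The other 3 pairs overlapped between groups, at log2 differences of -0.26 for Lamb1 to Lamb2 (exact permutation p = 0.8, adjusted 0.8), 0.33 for Lama4 to Lama2 (p = 0.3, adjusted 0.5) and 0.13 for Lama5 to Lama2 (p = 0.8, adjusted 0.8).

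**Figure D2:**
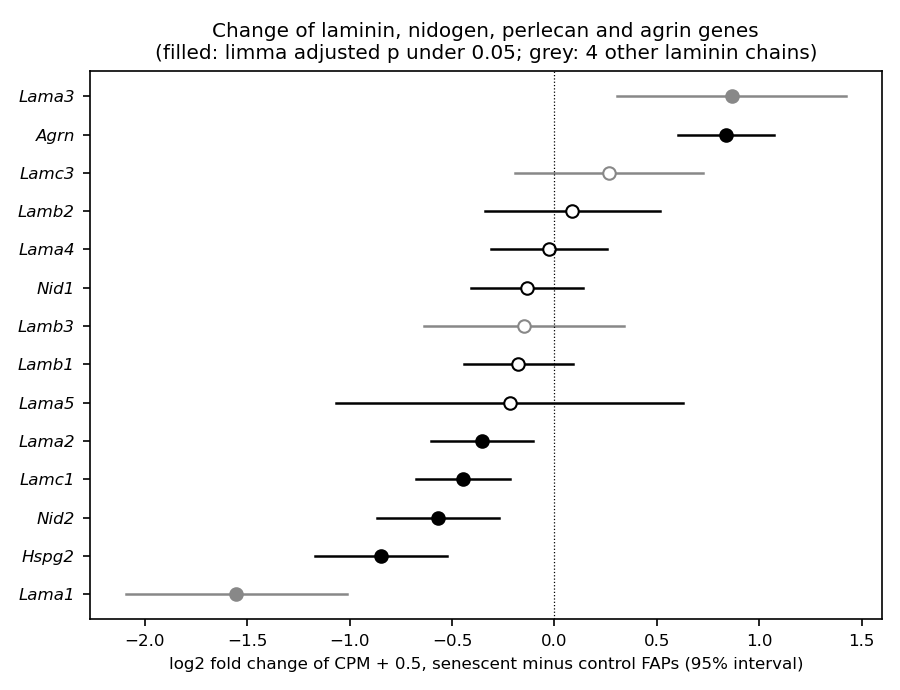
Log2 fold change of CPM + 0.5, senescent minus control FAPs (horizontal axis), with its 95% interval from limma for the 10 genes (black) and 4 other laminin chains (grey), ordered by value. Filled points passed a limma adjusted p of 0.05. Hspg2 at -0.85 and Agrn at 0.84 lie at the ends of the 10 genes, and the interval of Lama5 is the widest.

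Per kilobase of the longest annotated transcript, Nid1 was the most abundant of the 10 RNAs in control FAPs, at 242 ± 14.8 CPM per kb, followed by Hspg2 at 153 ± 11.6. Lamb1 at 95.8 ± 12.3, Lamc1 at 90.4 ± 9.22 and Lamb2 at 69.1 ± 17.9 CPM per kb came next, and the libraries of Lamb1 overlapped those of Lamc1, as did those of Lamc1 and Lamb2. Below them lay Lama4 at 44.2 ± 4.05, Lama2 at 23.0 ± 2.66, Nid2 at 15.2 ± 2.55, Agrn at 3.06 ± 0.0884 and Lama5 at 1.38 ± 0.599 CPM per kb, each apart from its neighbours. In senescent FAPs the order was the same except that Lamb2, at 71.6 ± 1.89 CPM per kb, stood above Lamc1, at 66.1 ± 1.90, without overlap. Hspg2 came down to 85.8 ± 11.7 CPM per kb there, a range that overlapped Lamb1 at 84.4 ± 6.85. Agrn reached 5.53 ± 0.669 CPM per kb in senescent FAPs and was still above Lama5 at 1.12 ± 0.373 and below Nid2 at 10.2 ± 0.890. All of these are means ± SD of 3 libraries, and part of the order turned with the length used. With the union of exons as length, a choice made after seeing the data, Lamc1 at 83.3, Lamb2 at 63.9 and Lamb1 at 55.9 CPM per kb followed Hspg2 in control FAPs, and Lamb2 at 66.2, Lamc1 at 60.9 and Lamb1 at 49.2 in senescent FAPs. Nid2 and Lama2 also changed places in control FAPs, at 14.4 and 13.6 CPM per kb with overlap, while Nid1, Hspg2, Lama4, Agrn and Lama5 kept their ranks.

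The 10 genes together took 0.547% ± 0.0285 of the reads on genes in control FAPs and 0.485% ± 0.0343 in senescent FAPs (SD, n = 3). The groups overlapped and the two-sided exact permutation test gave p = 0.2, so this share was not shown to differ. A share of reads leaves out the deposited scaling. Deposited CPM summed to 1063750 to 1090570 in control and 919819 to 935033 in senescent libraries. The sum of the 10 genes in deposited CPM was not tested.

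A further 4 laminin chains were examined, all at lower levels. Lama1, the alpha chain of an early embryonic laminin, fell from 8.39, 6.18 and 11.9 CPM in control FAPs to 2.84, 2.73 and 2.21 CPM in senescent FAPs (log2 fold change -1.55, SE 0.23, limma adjusted p = 0.00173). Lama3, an epithelial alpha chain, had 0.692, 1.62 and 0.772 CPM in control and 2.03, 2.04 and 2.52 CPM in senescent FAPs. Its groups did not overlap and it was called (log2 fold change 0.86, limma adjusted p = 0.0214), but the call was lost without control replicate 1 or 3 or senescent replicate 2 or 3, and it rests on 31 to 122 reads per library. Lamb3 and Lamc3, at 1.74 to 3.79 CPM on average in either group, were not called. Of these 4 chains, 1 was higher and 1 was lower (25% each, near the 21.8% and 24.3% of all genes), with a median log2 fold change of 0.06. In limma 0 were higher without any 1 of the libraries on which Lama3 depends. With all 6 libraries edgeR and DESeq2 each called 1 higher.

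Summed per kilobase, the alpha chains came to 69.6 ± 2.99 CPM per kb in control and 63.1 ± 4.93 in senescent FAPs, and the beta chains to 165 ± 5.70 and 156 ± 6.74, both with overlap. Set against Lamc1 in the same library, the beta sum was 1.75, 1.99 and 1.77 times its level per kilobase in control FAPs and 2.38, 2.44 and 2.28 times in senescent FAPs. The alpha sum was 0.728, 0.832 and 0.762 times the Lamc1 level in control FAPs and 0.999, 0.902 and 0.961 times in senescent FAPs. Both ratios were higher in every senescent library. Each gave p = 0.1 in the two-sided exact permutation test, or 0.25 after adjustment over the 5 measures tested, which were chosen after seeing the data. Lama4 held 63.4% ± 4.04 of the alpha sum in control and 68.7% ± 4.88 in senescent FAPs, Lama2 33.2% ± 4.67 and 28.7% ± 4.28, and Lamb1 58.2% ± 9.60 and 53.9% ± 2.22 of the beta sum, all with overlap (exact permutation p = 0.3, 0.4 and 0.8). With the union of exons as length Lamb1 held 47.0% and 42.5% of the beta sum and Lamb2 52.7% and 57.3%, so which beta chain led depended on the length. These ratios are of RNA and do not measure trimers.

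**Figure D3:**
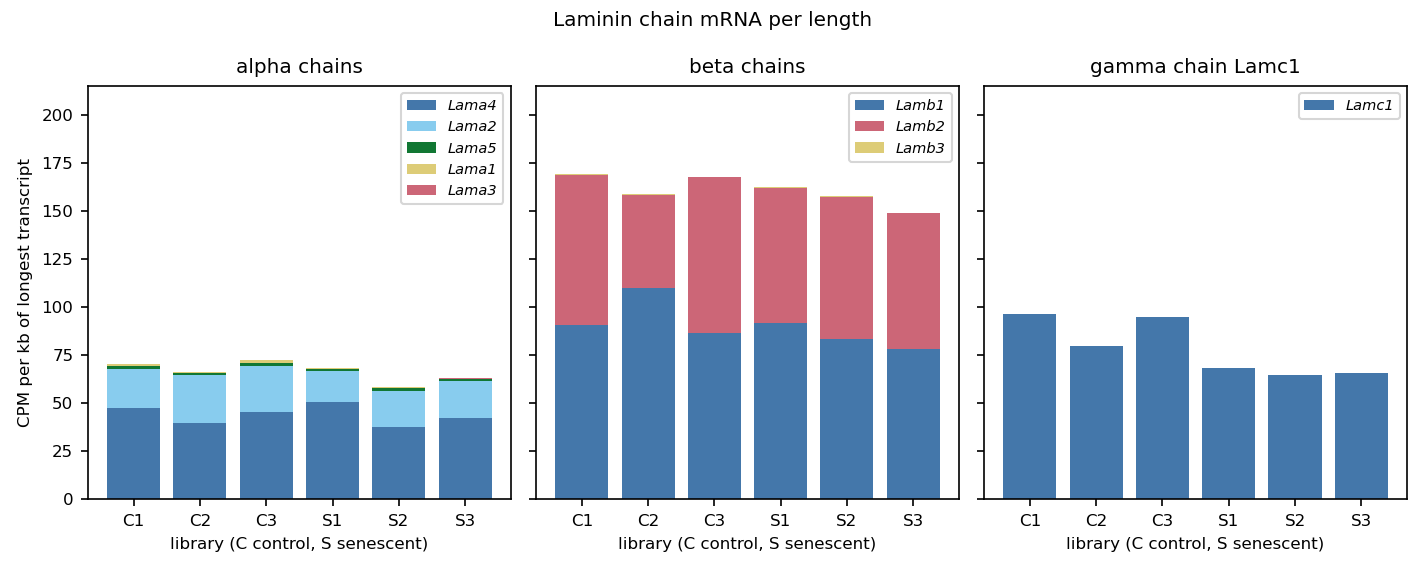
CPM per kilobase of longest transcript (vertical axis, linear, starting at 0) of the laminin alpha and beta chains, stacked by gene, and of the gamma chain Lamc1, in control (C1 to C3) and senescent (S1 to S3) FAP libraries. Lamc1 averages 90.4 in control and 66.1 in senescent libraries, and control replicate 2 has the smallest Lamb2 segment.

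Most of the other basement membrane components examined were not called. Of 22 such genes 21 were listed and 19 tested, of which 3 were higher (15.8%) and 2 lower (10.5%), shares below those of all genes tested (21.8% and 24.3%), and the median log2 fold change was 0.19. Pxdn, the peroxidase that cross-links collagen IV, fell from 291 ± 23.7 to 136 ± 28.5 CPM (log2 fold change -1.11, limma adjusted p = 0.00101). Ntn4, a netrin that binds laminin gamma chains, rose from 54.2 ± 23.4 to 141 ± 24.3 CPM (log2 fold change 1.44, limma adjusted p = 0.00438), and the minor collagen IV chain Col4a4 rose from 0.205 ± 0.0667 to 0.905 ± 0.145 CPM (0.99, adjusted p = 0.00251) on 6 to 61 reads. The remaining calls, named after their values were seen, were Col4a6 higher and Smoc1 lower. Without control replicate 2 the counts were 5 higher and 5 lower, and 1 was lower without control replicate 3 or senescent replicate 2 or 3. The main collagen IV chain Col4a1, also named after its values were seen, spread from 475 to 2131 CPM within the control group and was not called (limma adjusted p = 0.451).

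Of 20 genes for receptors of laminin and agrin and their partners, 19 were listed and 18 tested, with 4 higher (22.2%, where all genes had 21.8%), 2 lower (11.1%, where all genes had 24.3%) and a median log2 fold change of 0.05. Itgb4, the integrin subunit of hemidesmosomes, rose from 1.06 ± 0.235 to 3.27 ± 0.599 CPM (log2 fold change 1.27, limma adjusted p = 0.00162). Of the integrin subunits that bind collagens and laminins, Itga2 rose from 2.25 ± 1.03 to 5.93 ± 1.28 CPM (1.27, limma adjusted p = 0.00754) and Itga1 fell from 42.7 ± 9.71 to 21.2 ± 1.85 CPM (-0.97, limma adjusted p = 0.00235). The other calls, named after their values were seen, were Itga7, a laminin receptor of muscle, at 0.83 and Musk, the kinase through which agrin acts at the junction, at 0.96, both higher, and Dag1, which encodes dystroglycan, at -0.24. Itga7 averaged 11.1 CPM in control and 20.2 CPM in senescent FAPs, in cells sorted as alpha-7 integrin-negative. Musk averaged 1.22 and 2.85 CPM, on 36 to 171 reads per library. With the replicate number as a block, 5 receptors were higher and 5 lower, and with library totals alone 6 were higher and 1 lower. The lower count was 1, without Dag1, under median-of-ratios scaling, with edgeR, without the variance trend, and without control replicate 3 or any 1 senescent replicate. Dag1 was also not called by DESeq2 or without control replicate 2.

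Of 17 genes for the sugar chains through which dystroglycan binds laminin, perlecan and agrin, 16 were listed and tested, with 2 higher (12.5%), 3 lower (18.8%) and a median log2 fold change of 0.00, against 21.8% and 24.3% of all genes. Gmppb, which makes the mannose donor, fell from 114 ± 13.0 to 48.0 ± 5.95 CPM (log2 fold change -1.24, limma adjusted p = 0.000352), and the mannosyltransferase Pomt2 fell from 40.0 ± 1.53 to 30.0 ± 2.16 CPM (-0.41, limma adjusted p = 0.00666). The symbol B3gnt1, an older name of B4gat1, rose from 24.1 ± 1.63 to 34.2 ± 1.27 CPM (0.49, limma adjusted p = 0.00322). B3gnt2, for which that symbol has also been used, has a line of its own. Pomgnt1 was lower and Pomgnt2 higher, both named after their values were seen, and 1 gene was higher without senescent replicate 2. The lower count was 2, without Pomgnt1, under median-of-ratios scaling and without the variance trend. The same held without control replicate 2 or 3 or any 1 senescent replicate. With library totals alone 5 were higher and 1 lower.

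Perlecan and agrin carry heparan sulfate, so the enzymes that build and edit it were counted too. Of 29 genes 26 were listed and 21 tested, with 5 higher and 5 lower (23.8% each, near the 21.8% and 24.3% of all genes) and a median log2 fold change of -0.15. Sulf2, which removes sulfate from the chains outside the cell, rose from 118 ± 27.6 to 261 ± 8.07 CPM (log2 fold change 1.16, limma adjusted p = 0.000909). The epimerase Glce fell from 113 ± 15.7 to 62.9 ± 1.37 CPM (-0.83, limma adjusted p = 0.000996), and the sulfotransferase Hs3st1 rose from 0.639 ± 0.259 to 2.63 ± 0.492 CPM (1.47, limma adjusted p = 0.00147). The other calls, named after their values were seen, were Extl2, Extl3 and Sulf1 higher and Ext2, Ndst2, Hs6st1 and Hs3st3b1 lower. With the replicate number as a block 8 were lower, and with library totals alone 6 were higher and 3 lower. The lower count was 9 without control replicate 2 and 3 without control replicate 1 or 3 or senescent replicate 2 or 3, and 3 were higher without senescent replicate 3.

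Among 10 cell surface heparan sulfate proteoglycans 9 were listed and tested, with 3 higher (33.3%), 1 lower (11.1%) and a median log2 fold change of 0.24, against 21.8% and 24.3% of all genes. The syndecan Sdc1 rose from 317 ± 18.4 to 439 ± 11.6 CPM (log2 fold change 0.47, limma adjusted p = 0.00251) and the glypican Gpc2 from 11.8 ± 2.47 to 22.6 ± 1.26 CPM (0.93, limma adjusted p = 0.00303). The glypican Gpc4, at 140 ± 26.6 and 195 ± 26.3 CPM, was called (0.49, limma adjusted p = 0.0312) although its groups overlapped, and its call was lost without control replicate 1 or 2, senescent replicate 2 or 3 or the variance trend. Sdc3, named after its values were seen, was lower, a call that median-of-ratios scaling, the test without the variance trend, edgeR and DESeq2 did not make and that was lost without control replicate 1 or senescent replicate 2 or 3. With library totals alone 5 were higher and 0 lower.

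**Figure D4:**
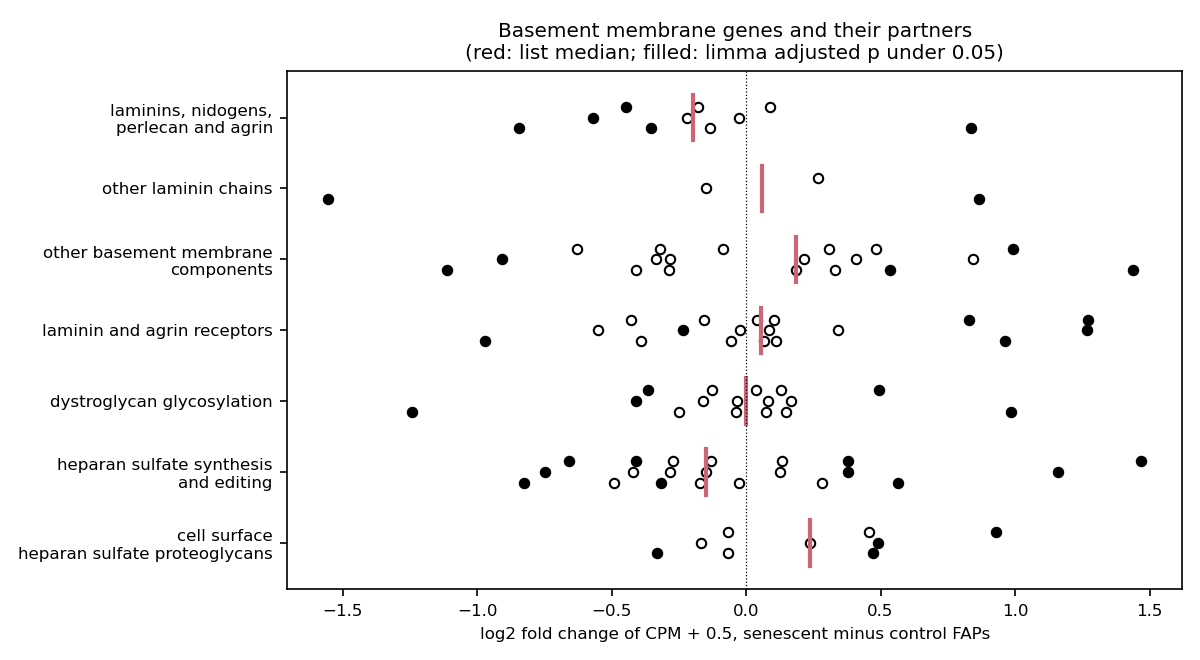
Log2 fold change of CPM + 0.5, senescent minus control FAPs (horizontal axis), of each tested gene in the 10-gene group and the 6 related lists. Filled points passed a limma adjusted p of 0.05, and red bars mark medians. The median of the 10 genes is -0.20 and those of the related lists run from -0.15 to 0.24, with called genes on both sides of 0 in every list.

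Cells other than FAPs could hold basement membrane RNA, so markers of other types were summed in each library. Endothelial markers, 6 of 8 listed without Emcn and Cldn5, summed to 22.4 to 42.8 CPM in control and 27.2 to 34.2 CPM in senescent libraries. Myogenic markers, 3 of 8 listed without Pax7, Myod1, Myf5, Myog and Cdh15, summed to 4.15 to 11.1 and 10.9 to 11.6 CPM. Both ranges overlapped between the groups, but single markers were called. Tek was the most abundant endothelial marker. Of the 5 tested 2 were called higher (40%) and 1 lower (20%), where all genes had 21.8% and 24.3%. Pecam1 rose from 0.706 to 1.70 CPM and Vwf from 1.08 to 1.99 CPM, while Kdr fell from 4.05 to 2.20 CPM. Of the 3 myogenic markers, 1 was called higher (33.3%), Musk, and 0 lower. Mural cell markers, 7 of 7 listed, summed to 310 to 412 CPM in control and 258 to 281 CPM in senescent libraries. That sum was mostly Cspg4, which fell from 288 to 167 CPM, while Notch3 rose from 19.8 to 61.7 CPM and Rgs5 from 1.32 to 4.70 CPM. Of the 6 mural markers tested 2 were called higher and 2 lower (33.3% each). Schwann and glial markers, 5 of 7 listed without Sox10 and Foxd3, summed to 3.86 to 8.56 and 9.35 to 12.4 CPM, and leukocyte markers, 6 of 8 listed without Ptprc and Adgre1, to 10.9 to 13.9 and 27.0 to 32.9 CPM. The mural sum was lower, and the glial and leukocyte sums higher, in every senescent library. Of the 3 glial markers tested 1 was called higher (33.3%) and 0 lower. Of the 5 leukocyte markers tested 4 were called higher (80%, where all genes had 21.8%) and 0 lower. The median log2 fold change of these leukocyte markers was 1.43, and Csf1r, the most abundant, was not called. The part of any of these cell types in the changes of Hspg2, Agrn, Lamc1, Nid2 and Lama2 was not tested.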

How the data were processed

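Libraries were prepared with a stranded mRNA kit. The authors deposited 1 signal value per gene and library, CPM of edgeR's effective library size (per the submitters' processing notes edgeR 3.10 in R 3.6.0, build mm10); aligner, counter, annotation and filter are not given in the sources used here. All values were whole multiples of 1 read within 0.01 (100%), so reads were recovered; 1 read was 0.0167 to 0.0225 CPM. A line naming no gene held 0.00409% to 0.00699% of reads and was left out. The plan had assumed plain CPM; its test was retained. The 14776 genes that reached 0.5 CPM in 3 or more libraries entered limma 3.58.1 (R 4.3.3) with a variance trend on log2(CPM + 0.5), two-sided, Benjamini-Hochberg over all genes; fold changes on this scale understate low genes. edgeR 4.0.16 (3261 genes higher, 3307 lower) and DESeq2 1.42.0 on recovered reads were alternatives, with other pseudocounts, filters and scalings, the replicate block, no variance trend, and each library left out. On simulated data the tests were checked.

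Equal replicate numbers come from the labels. Deviations from group means correlated at 0.537, 0.308 and 0.207 for equal numbers and at -0.357 to 0.153 otherwise. The numbers were therefore taken to pair libraries in the replicate block, while the main limma test was unpaired. This pairing is uncertain, since senescent replicate 3 correlated at 0.207 with control replicate 3 and at 0.153 with control replicate 2. Named genes were the 10 genes, other laminin chains and the 3 smallest p in each related list; exceptions are stated, and an item under this rule is not reported here. The genes and lists were chosen with earlier results of these data known. Coordinates are from GENCODE M21 (GRCm38, the mm10 build) and promoter bases from RefSeq.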

Additional observations from a re-analysis of the deposited data

How the results depend on the processing

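With library totals alone, 1 of the 10 genes was lower instead of 4, and the log2 changes of Lama4 (0.19), Lamb1 (0.0359), Nid1 (0.0787) and Lamb3 (0.0187) took the opposite sign, none of them called. Lama4 was 0.00483 with edgeR and 0.0176 with DESeq2. Under the rule of p below 0.01 before adjustment with a log2 change past 1, 0 of the 10 genes were higher and 0 lower as deposited. With library totals alone Agrn passed that rule upward, and none passed downward. With each library left out in turn, log2 changes ran from -0.14 to 0.0698 for Lama4, -0.64 to 0.0275 for Lama5, -0.15 to 0.22 for Lamb2 and -0.30 to 0.0110 for Lamb3, the log2 ratio difference from -0.46 to 0.0746 for Lamb1 to Lamb2 and -0.37 to 0.41 for Lama5 to Lama2, and the difference in the Lamb1 share from -7.48 to 1.29 percentage points. With the union of exons as length, an alternative chosen after seeing the data, the ratio of the alpha sum to Lamc1 differed by 0.0985 instead of 0.18. The cause of these differences was not tested. With the replicate block 1 of the 10 genes was higher and 4 were lower, and the block changed no other call among them. Each difference in a within-library ratio is the same with the block by construction, so it is no check. The smallest possible exact p there was 0.25. The chain shares and ratios, their block and their left-out libraries were also added after seeing the data. Few reads lie behind Lama3, Col4a4, Hs3st1, Itgb4 and Musk, among others.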
